A study of Mus musculus with 6 samples.

Results

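Oxidative phosphorylation is the work of 5 protein complexes in the inner mitochondrial membrane, and its subunits were followed here in osteosarcomas with and without Cd44. Complexes I to IV pass electrons from NADH and succinate to oxygen and, all but complex II, pump protons, and complex V (ATP synthase) uses the proton gradient to make ATP. The subunits come from separate genomes: a small set of catalytic, membrane-embedded proteins is transcribed inside the mitochondrion from both strands of a circular DNA, and all others are transcribed in the nucleus, made in the cytosol and imported. Muscle, heart, liver and brown fat are known for a high content of these complexes, and tumors can retain or reduce it.

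The members were all protein-coding genes whose symbols name a subunit of complex I (mt-Nd, Ndufa, Ndufb, Ndufc, Ndufs, Ndufv), complex II (Sdh), complex III (mt-Cytb, Uqcr), complex IV (mt-Co, Cox4 to Cox8) or complex V (mt-Atp, Atp5), without pseudogenes and assembly factors. They numbered 98 of the 39179 genes in the count table. Of these, 13 were encoded in the mitochondrial genome (7 in complex I, 1 in complex III, 3 in complex IV and 2 in complex V) and 85 in the nucleus (38, 4, 8, 18 and 17 in complexes I to V). All 13 mitochondrial and 83 of the nuclear members passed the low-count filter. Cox8c had no read in any tumor and Cox7b2 had reads in tumor No203 alone, so neither was tested. Ndufa4, assigned to complex I by its symbol, is now regarded as a subunit of complex IV, and Ndufa4l2, Cox7a2l and Atp5s match the naming rule without being classical structural subunits.

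RNA came from osteosarcomas of mice of mixed C57BL/6 x 129/Sv x FVB background that carried 1 mutant allele of the tumor suppressor gene Nf2 (Nf2Δ2/+) in every group. The first 3 values of each comparison stand for No244, No316 and No368, the tumors with both Cd44 alleles (CD44+/+; Nf2Δ2/+). The values set against them stand for No203, No279 and No364, the tumors of mice without Cd44, the receptor for hyaluronic acid (CD44-/-; Nf2Δ2/+). One field of the labels speaks of RNA from cell lines, whereas title, source and tissue name the tumor. No age of the animals was given.

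Total counts lay between 18076388 and 26954142 per library. Levels are given as CPM, counts per library size scaled by the trimmed mean of M values (TMM) and expressed per 1e+06 counts. Cd44 itself had 137, 243.6 and 240.3 against 19.2, 15.7 and 61.8 CPM, without overlap. The libraries of No316 and No368 were near-identical: 14530 of 16671 genes with at least 20 counts in both together fell in the 95% binomial range of a single library split at random, and 70 of 96 members did. They were therefore counted as 1 sample in every mean ± SD (n = 2 for Cd44+/+, n = 3 for Cd44-/-), and the quoted model p-values, in which they count as separate libraries, are too small to that extent. Sp7, the transcription factor that defines osteoblasts, stood at 192, 192 and 199 CPM in the Cd44+/+ tumors and at 333 in No203, but at 3.96 in No279 and 0.314 in No364, and Ibsp and Dmp1 were likewise below 4 CPM in these 2 tumors. The whole list of 10 osteoblast genes summed to 33866, 52052 and 53064 against 84906, 22539 and 3691 CPM, and none of them was at 0 in any tumor. Col1a1, the collagen chain of bone and other connective tissue, had 11990 CPM in No279, above the 8482 of No244. Skeletal muscle genes were high in No244 and hepatocyte genes in No364, and their values are given beside the results they touch. In bulk RNA, fewer cells of a type and less RNA per cell cannot be told apart.

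Mitochondrial transcripts differed between tumors far more than nuclear ones. The 13 mitochondrial members held 52.6% of all counts in No244, against 6.04% in No316, 6.06% in No368, 10.2% in No203, 5.79% in No279 and 12.3% in No364. One Cd44+/+ tumor thus stood apart, and the other Cd44+/+ libraries lay within the range of the Cd44-/- tumors. Summed counts of the 85 nuclear members made up 1.41% of the counts outside the mitochondrial genome in No244, 0.876% in No316, 0.846% in No368, 1.39% in No203, 1.22% in No279 and 1.12% in No364. No244 was highest on this scale too, but by a small margin. As a share of all counts, in which the mitochondrial reads enter the total, the nuclear members had 0.633%, 0.821% and 0.792% against 1.24%, 1.15% and 0.982%, so that No244 was lowest and the genotypes did not overlap on that scale alone. Wilson 95% intervals of these shares extended less than 1 percent of their value to either side and cover counting error only.

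The ratio of mitochondrial to nuclear counts was 82.98 in No244. It was 7.35 in No316, 7.66 in No368, 8.21 in No203, 5.05 in No279 and 12.5 in No364. No244 was thus 6.65-fold above the highest of the other libraries. By genotype the ratio was 45.2 ± 53.4 (SD, n = 2) with Cd44 and 8.58 ± 3.72 (SD, n = 3) without, and the ranges overlapped. With No316 and No368 counted once, 2 samples stood against 3. An exact two-sided permutation test then cannot go below p = 0.2, so none was run on single values of this kind. No244 remained 5.97-fold to 7.64-fold above the next tumor under each of the following changes. Every member was divided by its exonic length, tissue-restricted members were left out, or medians replaced sums. In the last change, mt-Co1, mt-Co2, mt-Co3, mt-Atp6, mt-Atp8 and mt-Nd2, a stretch of which is known as a nuclear copy, were left out. That change kept mt-Nd4l, mt-Nd3 and mt-Nd4. Of their read-length windows, 98.8%, 98.0% and 62.2% occur in another annotated gene. Whether the ratio holds without every copied gene was therefore not tested. mt-Nd1, mt-Atp8, mt-Cytb and mt-Nd6 have no shared window. In No244 their CPM were 12.6-fold, 15.1-fold, 21.5-fold and 30.8-fold over the mean of No316 and No368. In No364 they were 2.14-fold, 6.60-fold, 3.31-fold and 2.52-fold over it.

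**Figure D1:**
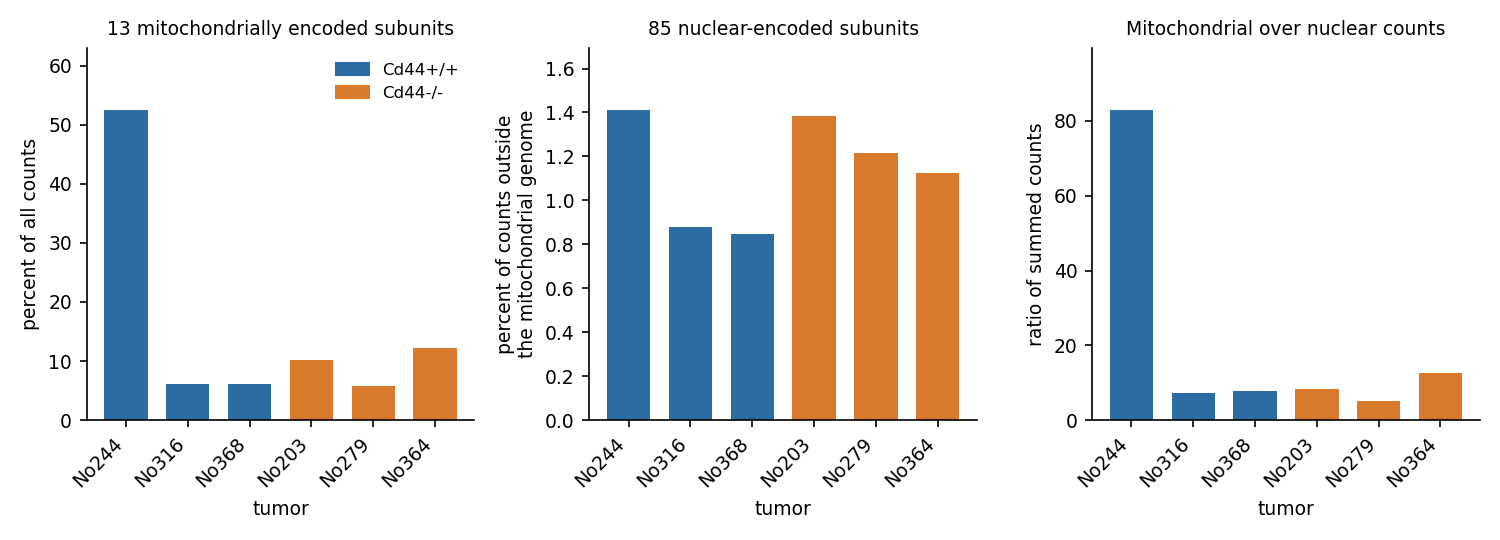
Bars show, for each of the 6 tumors, the percent of all counts from the 13 mitochondrial subunits (left), the percent of counts outside the mitochondrial genome from the 85 nuclear subunits (middle) and the ratio of the summed counts (right), blue for Cd44+/+ and orange for Cd44-/-. No244 stands at 52.6% and at a ratio of 82.98, whereas its nuclear share of 1.41% is next to that of No203 (1.39%).

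The excess in No244 covered the whole mitochondrial genome. Relative to the mean of No316 and No368, CPM of the 13 members in No244 were higher by a median of 21.5-fold, from 12.6-fold for mt-Nd1 to 30.8-fold for mt-Nd6. mt-Rnr1 and mt-Rnr2, the mitochondrial ribosomal RNAs, which are no members and are read from the same DNA, were 19.3-fold and 18.9-fold higher. The corresponding medians were 2.10 in No203, 1.06 in No279 and 3.59 in No364. In No279, 6 of the 13 lay below the pair, down to 0.574-fold for mt-Nd1, and mt-Rnr1 and mt-Rnr2 stood at 0.615-fold and 0.473-fold. In edgeR's quasi-likelihood test over all genes, the 13 members had log2 fold changes (Cd44-/- minus Cd44+/+) with a median of -1.75, and without No244 the median was 1.150, when all 13 were above 0. The direction of the mitochondrial difference between genotypes thus rested on a single tumor. For mt-Co1, the catalytic core of complex IV, the log2 fold change of -1.45 ± 2.12 (SE) had an adjusted p of 0.807 (edgeR).

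Markers of another tissue moved with this excess. All 12 skeletal muscle genes listed were highest in No244, and their summed CPM was 22561 there, 228 in No316, 226 in No368, 862 in No203, 112 in No279 and 17.0 in No364. Ckm, the muscle creatine kinase, reached 3947 CPM in No244 and 1.47 to 66.5 CPM in the other tumors. Erythroid genes were also high in No244, with a summed CPM of 9592 against 137 to 3499. Heart and brown fat lists were low in every tumor, with sums of at most 17.2 and 38.2 CPM. The part of these cell types in the mitochondrial excess was not tested.

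Within the mitochondrial pool, the composition could be compared without any reference to the nuclear genes. Complex IV subunits made up 46.5% to 47.7% of the pool in Cd44+/+ and 48.7% to 49.6% in Cd44-/- tumors, and complex I subunits 25.2% to 26.9% and 21.8% to 25.2%. Of the 13 members, 5 had shares that did not overlap between genotypes, 4 higher and 1 lower in Cd44-/- tumors. For orientation, the CPM of 9.49% of all 16839 genes tested lay higher without overlap in Cd44-/- tumors and of 9.57% lower, on a scale that refers to the whole library.

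The largest relative difference was that of mt-Nd4l, a small membrane subunit of complex I. It took 0.334%, 0.310% and 0.308% of the pool against 0.506%, 0.744% and 0.982%. The mean share was 0.321% ± 0.0175 (SD, n = 2) with Cd44 and 0.744% ± 0.238 (SD, n = 3) without it. All Cd44-/- values were above all Cd44+/+ values, No244 included.

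mt-Nd5, a proton-pumping subunit of complex I, took 1.46%, 1.21% and 1.26% of the pool in the Cd44+/+ tumors and 1.95%, 3.62% and 2.10% in the Cd44-/- tumors. mt-Atp8, a membrane subunit of ATP synthase, had shares of 1.19%, 1.62% and 1.58% against 1.97%, 3.27% and 2.81%. For mt-Co1 they were 21.5%, 19.1% and 19.4% against 24.3%, 25.3% and 26.5%. Lower shares in all Cd44-/- tumors were seen for mt-Nd3, another membrane subunit of complex I, with 1.79%, 1.89% and 1.90% against 1.14%, 1.17% and 0.865%. These 5 genes were picked for the lack of overlap, so the values are a description.

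**Figure D2:**
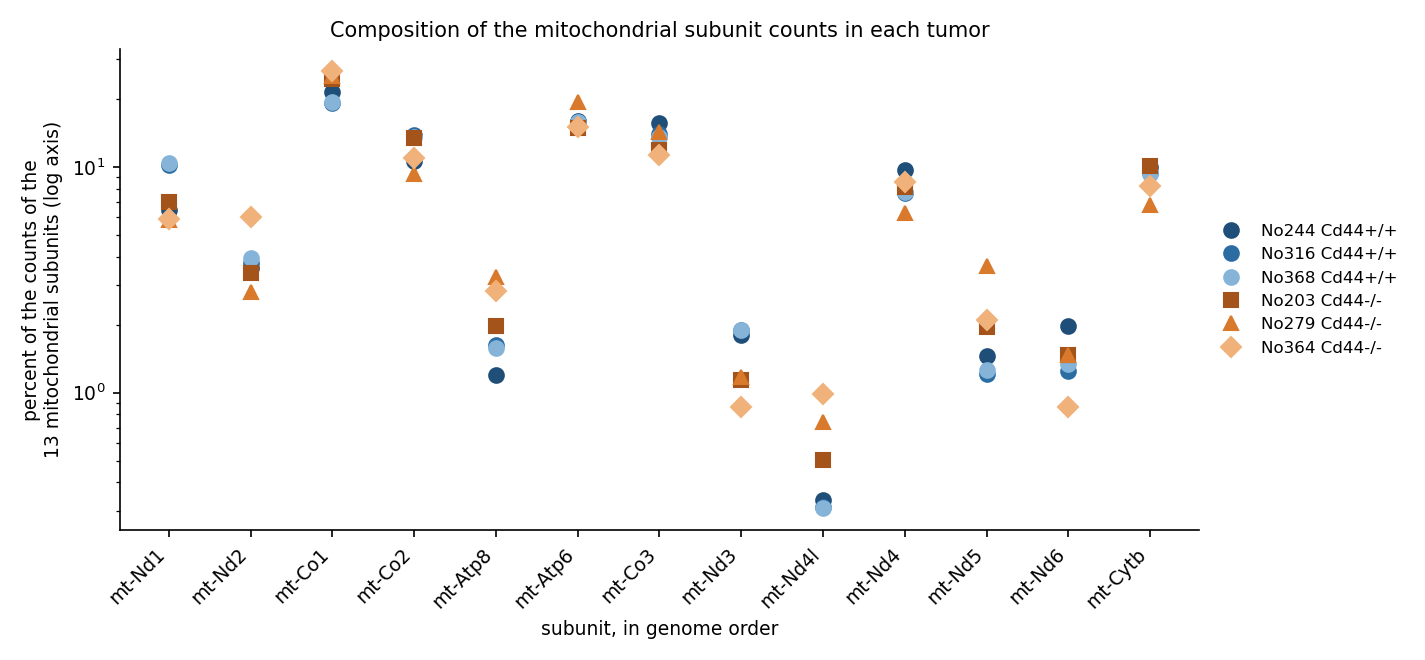
Points give each subunit's percent of the counts of the 13 mitochondrial subunits (logarithmic axis) in each tumor, in blue circles for Cd44+/+ and in orange symbols for Cd44-/-, with genes in genome order. Orange symbols lie above all blue ones for mt-Co1, mt-Atp8, mt-Nd4l and mt-Nd5 and below them for mt-Nd3.

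Some of these genes share sequence with each other or with nuclear copies. Mitochondrial genes lie end to end, and 3 pairs of members overlap by more than 1 base. These overlaps are printed because a 51-base read that spans one lies in 2 genes, with the overlapping bases in capitals and 40 bases on either side (heavy-strand reading direction, GRCm38, GENCODE M21).
mt-Atp8/mt-Atp6, chrM:7887-8009: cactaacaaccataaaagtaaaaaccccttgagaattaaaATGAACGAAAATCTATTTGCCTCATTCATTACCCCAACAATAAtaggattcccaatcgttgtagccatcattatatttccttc
mt-Nd4l/mt-Nd4, chrM:10127-10213: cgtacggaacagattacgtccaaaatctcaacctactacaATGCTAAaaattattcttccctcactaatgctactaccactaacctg
mt-Nd5/mt-Nd6, chrM:13512-13605: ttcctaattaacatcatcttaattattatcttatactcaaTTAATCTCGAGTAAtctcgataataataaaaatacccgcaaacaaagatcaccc
The overlaps measured 43, 7 and 14 bases. mt-Nd6 is read from the opposite strand to mt-Nd5 and is the sole messenger of that strand. Of the reads of both genes, mt-Nd6 took 57.4%, 50.9% and 51.5% in the Cd44+/+ tumors and 43.0%, 28.8% and 29.2% in the Cd44-/- tumors, again without overlap. The kit keeps the strand of the RNA, but whether counting used it is not given in the sources used here.

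Nuclear copies of mitochondrial DNA also matter for single genes. Of the 51-base windows of mt-Nd4l, 98.8% occur in another annotated gene, as do 98.0% of those of mt-Nd3 and 50.6% of those of mt-Co1, against 7.22% of mt-Nd5 and none of mt-Atp8 or mt-Nd6. Gm10222, the nuclear gene with the mt-Nd4l sequence, took 8.93% to 53.2% of the counts of both genes, and 15.9% and 48.1% in the near-identical libraries No316 and No368. Gm10222 thus differed between near-identical libraries, and mt-Nd4l, with 0.310% and 0.308% of the pool, did not. The part of copy assignment in the composition was not tested.

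Nuclear-encoded subunits mostly had higher levels in Cd44-/- tumors, though no single gene passed the test. No gene of 16839 passed an adjusted p of 0.05 in edgeR (0%), members included, with 1810 genes at an unadjusted p under 0.05. DESeq2's Wald test called 419 of 17952 genes (2.33%), among them 1 member, Uqcrc2. In edgeR, the log2 fold change was above 0 for 74 of the 83 tested nuclear members, against 55.1% of all genes, with a median of 0.62 against 0.11 over all genes. With No316 and No368 summed, 66 of the 83 were above 0, without either of them 65 or 66, and without No244 82. An unadjusted p under 0.05 was reached by 13 members, all higher in Cd44-/- tumors, where 6.44% of all genes were at that level in this direction and 4.31% in the other. That number was 4 when No316 and No368 were summed, 3 without either of them, 5 with library sizes as the sole scaling and 31 without No244. The number over all genes shifted as well, from 1810 with every tumor to between 763 and 3085 with 1 tumor left out. The member counts cannot be read apart from that shift.

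In 24 of the 83 nuclear members, all Cd44-/- tumors lay above all Cd44+/+ tumors, and in 0 below. This is 28.9% of the members, against 9.49% of all genes. It was 61 members without No244, when 20.2% of all genes separated in this direction, and 26 without No364, when 15% did. Median log2 fold changes were 0.58 in complex I, 0.97 in complex II, 0.83 in complex III, 0.66 in complex IV and 0.55 in complex V. With 1 tumor left out, these medians ranged from 0.35 to 0.86, 0.81 to 1.14, 0.51 to 1.23, 0.47 to 1.06 and 0.40 to 0.67, in the same order. Each was highest without No244. The lowest value came without No364 in complexes I, II and V and without No368 in complexes III and IV. Members move together within a tumor, so their number does not add replicates.

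**Figure D3:**
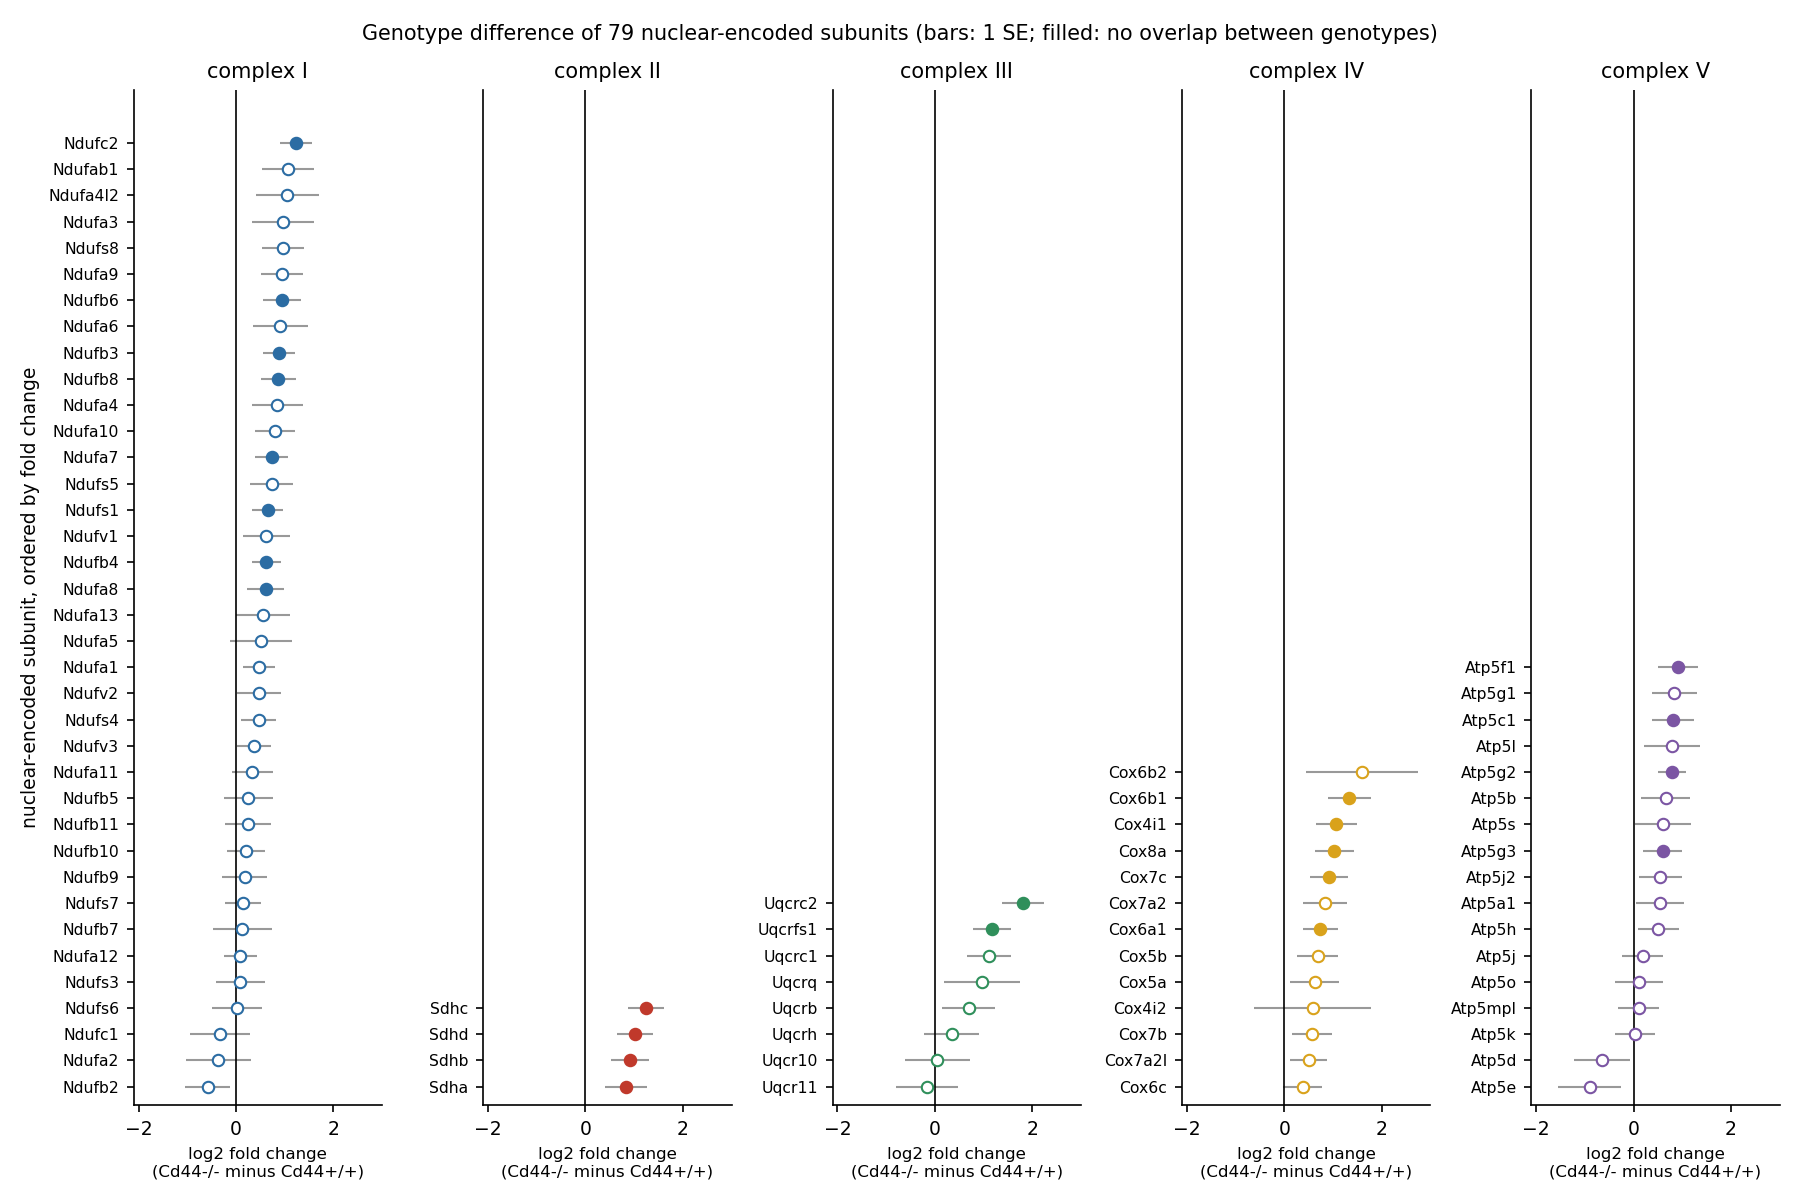
Points give the log2 fold change (Cd44-/- minus Cd44+/+, edgeR) with 1 standard error for most of the tested nuclear subunits (Cox6a2, Cox7a1 and Cox8b are not drawn), by complex, filled where the genotypes do not overlap. Most points lie right of 0, and all 4 subunits of complex II are filled.

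Complex II, succinate dehydrogenase, is shared with the citric acid cycle and has no mitochondrially encoded subunit. All 4 of its genes separated upward without overlap, where 9.49% of all genes did. Sdhc, a membrane anchor, had 39.6, 65.0 and 60.8 against 134, 102 and 155 CPM (log2 fold change 1.24 ± 0.37 SE, adjusted p = 0.452, edgeR). Sdhd, the other anchor, had 89.9, 61.3 and 60.1 against 117, 129 and 182 CPM (1.02 ± 0.37). The gap between the genotypes was wider than the distance from No244 to the pair for Sdhc, and not for Sdhd.

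Sdhb, the iron-sulfur subunit, had 97.5, 52.6 and 54.0 CPM in Cd44+/+ and 115, 121 and 151 CPM in Cd44-/- tumors. Sdha, the flavoprotein that oxidises succinate, had 168, 112 and 109 against 179, 190.3 and 324 CPM, with a small gap between No244 and No203. Of the counts outside the mitochondrial genome, complex II held 0.0450% ± 0.00658 (SD, n = 2) where Cd44 was present and 0.0682% ± 0.00266 (SD, n = 3) where it was absent. It was the one complex whose nuclear share did not overlap between genotypes, a description that follows from its members.

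Complex III holds the member with the smallest p. Uqcrc2, a core protein facing the matrix (chr7:120635176-120659524, GRCm38), had 64.3, 52.3 and 52.0 CPM in Cd44+/+ tumors and 145, 145 and 299.8 CPM in Cd44-/- tumors. Its mean was 58.2 ± 8.60 (SD, n = 2) against 197 ± 89.4 (SD, n = 3), a log2 fold change of 1.81 ± 0.44 (SE) with an adjusted p of 0.452 in edgeR and 0.0257 in DESeq2. Of its 51-base windows, 24.8% occur in 1 other gene. Uqcrfs1, the Rieske iron-sulfur protein that hands electrons to cytochrome c1, had 76.5, 54.8 and 57.1 against 115, 115 and 195 CPM (1.17 ± 0.38). Uqcrc1, the partner core protein, had 85.04, 40.2 and 40.4 against 81.3, 128 and 147 CPM (1.11 ± 0.46), and No244 lay above No203.

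Of the small subunits of complex III, Uqcrq, Uqcrh and Uqcr10 overlapped between genotypes, with log2 fold changes of 0.97, 0.35 and 0.05. Uqcr11 had 256 CPM in No244, 69.8 and 70.7 in the pair, and 131, 72.0 and 149.7 in Cd44-/- tumors (log2 fold change -0.17). Uqcrb, a small ubiquinone-binding subunit, had 74.2 CPM in No316 and 28.0 in No368, although these libraries were otherwise near-identical, and 42.5% of its 51-base windows occur in other genes. For this gene the spread between near-identical libraries was as wide as that between several tumors.

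In complex I, 9 of 38 nuclear members (23.7%) separated upward without overlap, against 9.49% of all genes. Ndufc2, an accessory membrane-arm subunit, had 56.0, 40.4 and 38.9 CPM in Cd44+/+ and 115, 87.4 and 116 CPM in Cd44-/- tumors (1.24 ± 0.33). Ndufb3 had 39.8, 27.9 and 30.4 against 69.6, 46.1 and 66.4 CPM (0.89 ± 0.33), and Ndufb6 and Ndufb8, further membrane-arm accessories, had log2 fold changes of 0.95 ± 0.39 and 0.87 ± 0.36. Of the 7 core subunits that carry the redox centres, all 7 had values above 0 (55.1% of all genes), and 2 separated (28.6%). Their median was 0.62, which was 0.40 without No316 and 0.41 without No368.

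Ndufs1, the largest iron-sulfur subunit, had 65.6, 71.8 and 72.4 against 85.5, 115 and 128 CPM. Ndufv1, which binds NADH, overlapped, with 81.5, 33.6 and 34.0 against 58.1, 66.8 and 104 CPM. Fold changes below 0 were fitted for Ndufb2 (-0.58 ± 0.46), Ndufa2 (-0.37 ± 0.67) and Ndufc1 (-0.34 ± 0.62), each with its highest level in No244.

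In complex IV, 5 of 16 tested nuclear members (31.25%) separated upward without overlap, all of them ubiquitous forms, against 9.49% of all genes. Cox4i1, the largest nuclear subunit, had 201, 126 and 119 CPM in Cd44+/+ and 296, 294 and 348 CPM in Cd44-/- tumors (1.07 ± 0.42). Cox6b1, which bridges the dimer, had 100.2, 65.5 and 64.2 against 201, 119 and 259.9 CPM (1.33 ± 0.44). Cox8a, a small membrane subunit, had 109, 62.1 and 70.4 against 166, 121 and 204 CPM (1.03 ± 0.40). Cox6a1 and Cox7c separated in the same way, with log2 fold changes of 0.74 and 0.92, whereas Cox5b, Cox6c, Cox7b and Cox7a2 overlapped, as did Cox5a, which regulates the enzyme, at 134, 50.2 and 46.8 against 120.1, 97.6 and 139 CPM.

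In complex V, 4 of 17 nuclear members (23.5%) separated upward, against 9.49% of all genes. Atp5b, the catalytic beta subunit, had 554, 449 and 443 against 545, 776 and 962 CPM and overlapped through No203. The proton-carrying c-ring protein is made from 3 genes that encode the same mature peptide. Atp5g2 had 58.1, 62.1 and 58.0 against 104, 112 and 91.9 CPM (0.79 ± 0.29), Atp5g3 separated with 0.60 ± 0.40, and Atp5g1 overlapped with 0.84 ± 0.46. For Atp5g2, 87.4% of the 51-base windows occur in 2 other genes, so its counts depend on how such reads were assigned. Atp5e and Atp5d, subunits of the central stalk, went the other way (-0.90 ± 0.64 and -0.65 ± 0.58) and had 497 and 476 CPM in No244 against 114 to 156 and 132 to 204 CPM in the other tumors.

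The near-identical pair had low levels of most nuclear members. No316 or No368 was the lowest library for 61 of the 83 members, and neither was the highest for any. Above both of the pair lay No203 in 83 members, No364 in 80, No244 in 72 and No279 in 61. On a log2 scale with 0.5 CPM added, the medians over the pair's mean were 0.93 in No203, 1.06 in No364, 0.52 in No279 and, in the Cd44+/+ tumor No244, 0.78. No244 thus exceeded the pair by more than No279 did. With the pair averaged, the median SD among 5 values was 0.60 for nuclear members, 1.798 for mitochondrial members and 0.72 for all genes, all on the log2 scale.

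**Figure D4:**
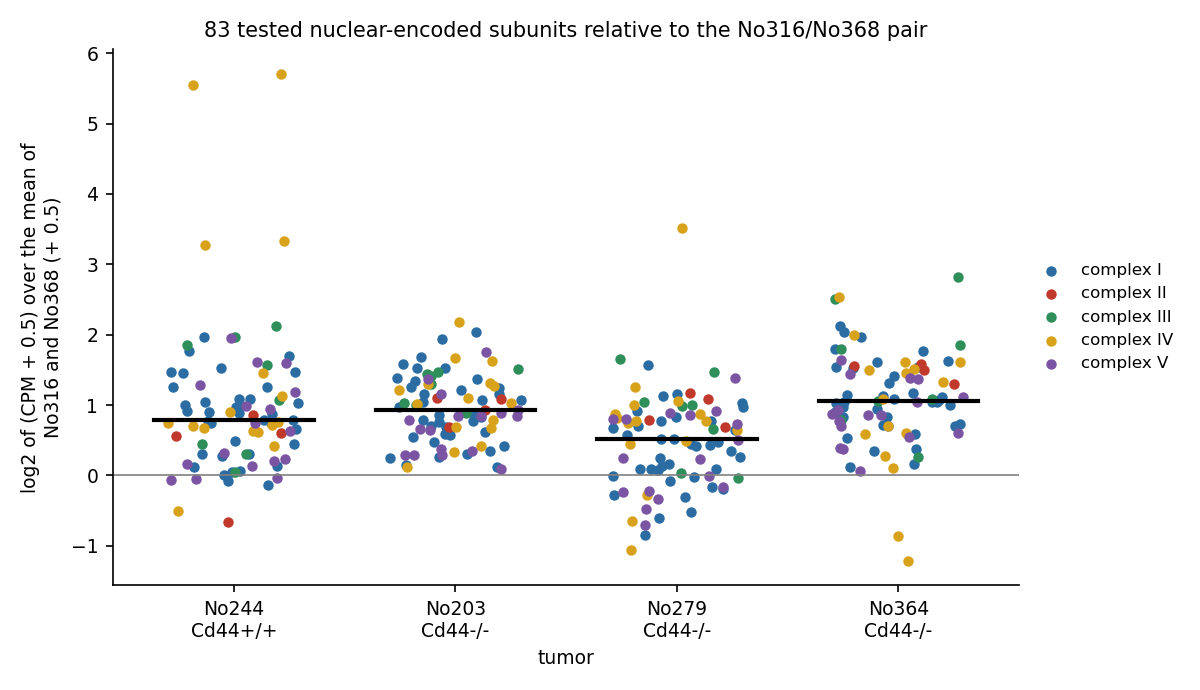
Each point is a tested nuclear subunit, plotted as the log2 of its CPM (with 0.5 added) over the mean of No316 and No368, colored by complex, with the median as a black line. The medians are 0.78 in No244 (Cd44+/+), and 0.93, 0.52 and 1.06 in No203, No279 and No364 (Cd44-/-).

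The size of the message moved with these values in different ways. In No244, members with a coding length of 400 bases or fewer lay 0.91 above the pair on the log2 scale and those over 800 bases 0.38. No203 had the same order, with 1.02 and 0.80. In No364 it was reversed, with 0.99 and 1.45, and in No279 the values were 0.47 and 0.82. Among all genes tested with a coding length, the shorter class lay 0.28 above the pair in No244, 0.38 in No203, 0.08 in No279 and 0.27 in No364, and the longer class between -0.14 and 0.03. The part of message length in the genotype difference was not tested.

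Liver genes were high in No364, the tumor in which 48 of the 83 members had their highest level. The 10 hepatocyte genes summed to 119116 CPM there and to at most 150.5 CPM in any other tumor. Without No364, the median of the nuclear members was 0.46, 67 of 83 were above 0, and 26 separated, all 4 genes of complex II among them. With No364 left out, 15% of all genes separated upward. Ppargc1a, a coactivator of mitochondrial biogenesis that is strong in liver and muscle, had 26.6 CPM in No364, 1.68 in No244 and at most 0.0420 in the other tumors.

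Tissue-restricted subunits of complex IV followed the muscle genes. Cox6a2, the heart and skeletal muscle form, had 130.1 CPM in No244, 2.40 in No316, 1.60 in No368, 7.41 in No203, 0.693 in No279 and 0.576 in No364. It provided 59.4% of the Cox6a counts in No244 (Wilson 95% interval 57.5% to 61.3%) and 0.280% to 4.20% in the other tumors. Cox8b had 50.9 CPM in No244 and at most 1.74 elsewhere, and Cox7a1 had 25.3 against 2.02 to 2.97. Their shares of the counts of both isoforms in No244 were 31.9% and 17.0%. The order of the tumors for Cox6a2 and Cox8b, No244 followed by No203 and the pair, was also that of the muscle gene sum.

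Their ubiquitous partners did not share that order. Cox6a1 had its lowest level, 88.7 CPM, in No244, where Cox6a2 was highest. Cox8a and Cox7a2 went the other way, with higher levels in No244 than in No316 and No368. The genotype differences of the muscle forms, -3.94 for Cox6a2, -4.65 for Cox8b and -1.88 for Cox7a1 on the log2 scale, were 0.53, 0.20 and 0.36 without No244. Sums of the pair Cox6a1 and Cox6a2 are therefore no measure of genotype here.

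Other restricted forms had other orders of tumors. Cox4i2, known from lung and vessel wall and induced by low oxygen, had 32.6 CPM in No244, 2.78 and 3.06 in the pair, 15.0 in No203, 38.7 in No279 and 3.66 in No364. It made up 13.9% and 11.6% of the Cox4 counts in No244 and No279 and 1.04% to 4.83% in the others, with no separation by genotype. Ndufa4l2, also known as induced by low oxygen, had 6.19 and 6.11 CPM in No203 and No279, and 1.60 to 3.61 in the other tumors. Cox6b2, the testis form, had 5.34 CPM in No364 and 0.330 to 1.09 elsewhere.

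**Figure D5:**
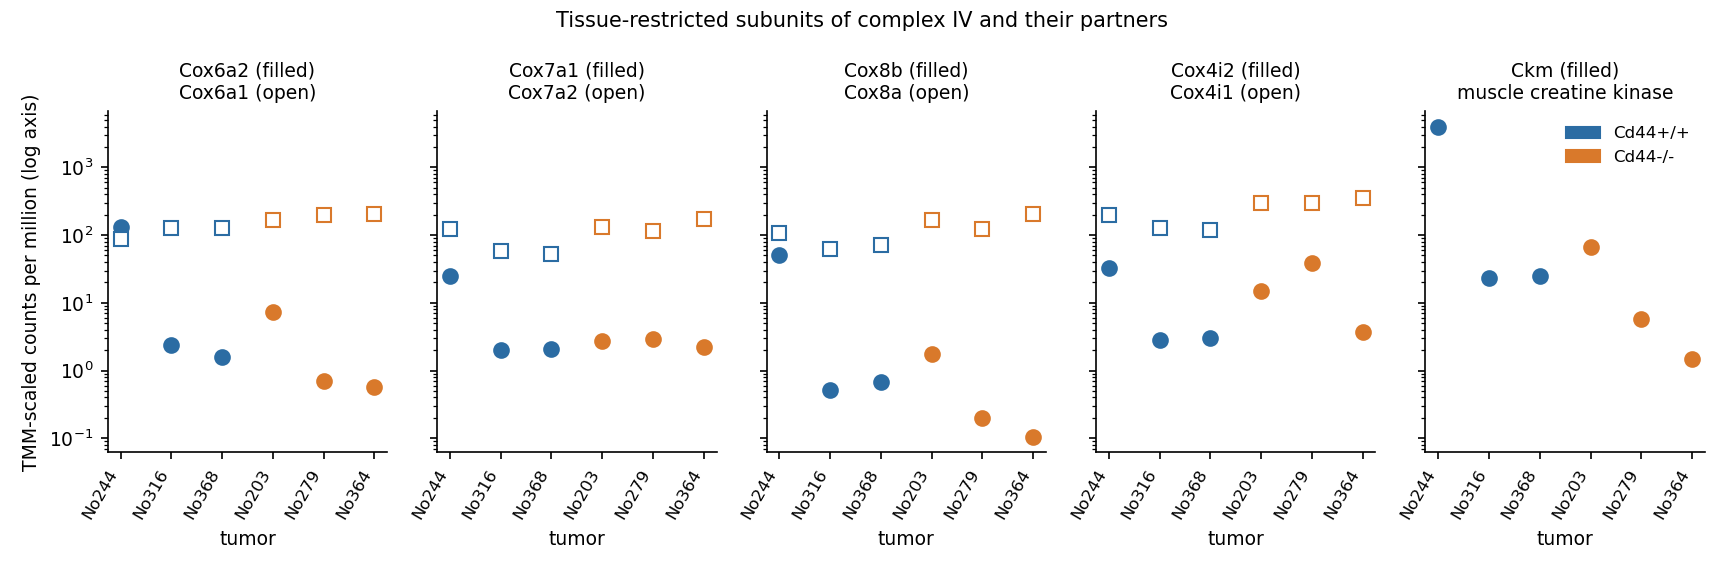
CPM (logarithmic axis) of 4 tissue-restricted subunits of complex IV (filled circles) with their ubiquitous partners (open squares) and of the muscle gene Ckm, by tumor, in blue for Cd44+/+ and orange for Cd44-/-. Cox6a2, Cox7a1, Cox8b and Ckm peak in No244, whereas Cox4i2 is high in No244 and No279.

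Levels per kilobase of the principal transcript placed mitochondrial messengers far above nuclear ones. The median over members, as mean of the 6 libraries, was 15393 CPM per kilobase for the mitochondrial and 108 for the tested nuclear members. Without No244 it was 5988 and 105.0. The highest nuclear member was Atp5e with 457 CPM per kilobase in complex V, Ndufa4 with 338 in complex I, Uqcrh with 330.1 in complex III, Cox4i1 with 302 in complex IV and Sdhd with 86.5 in complex II. These are comparisons of level between genes, and say nothing of genotype. At the low end stood Ndufa4l2 (3.88), Atp5s (4.94), Sdhc (29.2), Uqcrc1 (52.7) and Cox8c (0).

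Neighbouring pathways were compared by the same counts. Of 17 citric acid cycle and pyruvate dehydrogenase genes tested, 16 had log2 fold changes above 0 (55.1% of all genes), with a median of 0.75. An unadjusted p under 0.05 was reached by 6 (6.44% of all genes in this direction), and 10 separated upward (9.49% of all genes). Fh1, fumarase, had 41.8, 33.6 and 36.1 CPM in Cd44+/+ and 80.1, 81.2 and 212 CPM in Cd44-/- tumors, and Idh3a, a subunit of isocitrate dehydrogenase, had 48.4, 28.8 and 29.9 against 74.7, 80.8 and 88.8 CPM. Of 46 assembly factors, 38 were above 0 (median 0.34) and 9 separated upward, which is 19.6%. Without No364 their median was 0.05, with 29 of 46 above 0. Of 7 carriers and channels, 6 were above 0 (median 0.72), and Cycs, cytochrome c, had 154, 125 and 124 against 318, 162 and 222 CPM.

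Genes that transcribe and process mitochondrial DNA did not share the direction. Of 26 tested, 12 were above 0, with a median of -0.01, and 5 separated upward and 3 downward, where 9.49% and 9.57% of all genes did. Their median lay between -0.12 and 0.17 with 1 tumor left out. Tfam, which packages mitochondrial DNA, had 27.5, 32.3 and 33.2 against 34.6, 31.5 and 48.5 CPM, and Polrmt, the mitochondrial RNA polymerase, 16.4, 16.9 and 16.7 against 19.2, 14.6 and 17.4 CPM. Neither was high in No244, the tumor with the mitochondrial excess, and Tfam was lowest there, but the list was mixed. Polg had 102.5 CPM in No244 and 32.0 to 60.4 elsewhere, and Fastkd2 had 46.9 against 15.8 to 27.5 CPM. The part of these genes in the mitochondrial excess was not tested. Lrpprc, which stabilises mitochondrial messengers, separated upward, with 20.3, 27.6 and 25.9 against 48.6, 38.4 and 64.2 CPM. Slirp and Mtpap of the same list separated downward. Slirp had 92.5, 87.6 and 87.3 against 79.8, 53.7 and 69.1 CPM, and Mtpap 26.5, 31.5 and 31.9 against 20.3, 13.2 and 23.9 CPM. The 7 tested nuclear regulators of biogenesis had a median of 0.13, and none separated. With 1 tumor left out, when 7 or 8 were tested, the median lay between -0.02 (without No203) and 0.19 (without No316).

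Promoter sequences were available in RefSeq (GRCm38.p6) for 67 of the 85 nuclear members. The windows covered 250 bases before to 50 after the gene start and were searched on both strands for the cores of 3 factors known from such promoters: NRF1 (GCGCATGC), ETS factors including GABP (CCGGAAG) and YY1 (AAGATGG). A match was found in 10, 16 and 10 members, against 3.05%, 9.93% and 7.28% of all 27025 promoters. As fewer than 80% of the members had a window, a comparison of these shares is void. The 100 bases before the start are printed for 3 members with an unadjusted p under 0.05 and a core in that stretch, read 5′ to 3′ along the gene, with the match in capitals.
Atp5g2, chr15:102671048-102671147, minus strand: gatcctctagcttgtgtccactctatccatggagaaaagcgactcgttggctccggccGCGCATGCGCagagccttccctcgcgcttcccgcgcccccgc
Cox6b1, chr7:30626115-30626214, minus strand: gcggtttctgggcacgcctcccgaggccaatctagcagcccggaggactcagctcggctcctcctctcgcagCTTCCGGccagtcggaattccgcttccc
Sdhd, chr9:50603850-50603949, minus strand: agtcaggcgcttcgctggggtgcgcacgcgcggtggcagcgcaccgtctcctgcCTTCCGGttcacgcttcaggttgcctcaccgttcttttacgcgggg
In Atp5g2, the NRF1 core matched on both strands within a palindromic stretch of 10 bases that began 42 bases before the start. The ETS core lay on the reverse strand in Cox6b1 and Sdhd and began 28 and 46 bases before it. These starts are those of RefSeq. In GENCODE M21, Atp5g2 begins at chr15:102672352 and Cox6b1 at chr7:30626151. The printed Atp5g2 stretch and the Cox6b1 match therefore lie inside those genes as GENCODE bounds them. Of the factors, Nrf1 had 11.3 to 23.8 CPM and Yy1 30.8 to 45.4 CPM over the 6 tumors, and Gabpa was lowest in No244, with 17.6 CPM against 32.0 to 51.5 CPM elsewhere.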

How the data were processed

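RNA of 6 osteosarcomas was sequenced by the authors (TruSeq stranded mRNA, single-end reads), aligned to GRCm38 with HISAT2 2.0.2 and summarised per Ensembl gene with featureCounts of Subread 2.0.0. The deposited values are raw counts per gene and library, with no unused column. The handling of reads that match several genes is not given in the sources used here. Ensembl identifiers were matched to GENCODE M21 symbols for 37607 of 39179 rows. Genotypes came from the labels. Genes were tested over the whole table with edgeR 4.0.16 (quasi-likelihood F test, TMM, low-count filter, Benjamini-Hochberg adjustment at 0.05, R 4.3.3), with DESeq2 1.42.0 and limma 3.58.1 as alternatives. CPM refer to TMM-scaled library sizes. They exceed what a share of the library allows where mitochondrial counts dominate, so mitochondrial genes were also given as shares. The common biological coefficient of variation was 0.708. A count of 0 allows up to 3 counts, and intervals cover counting error only.

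The members and gene lists were chosen with earlier results of these data known. Named genes were the mitochondrial members, isoforms with their partners, core subunits, up to 12 nuclear members with the smallest unadjusted p under 0.05, up to 6 per direction without overlap, the highest and lowest per kilobase in each complex, and regulators. Others (Uqcr10, Uqcr11, Uqcrb, Uqcrq, Cox5b, Cox6c, Col1a1, Ndufb2, Ndufa2, Ndufc1, Ndufb8, Cox7c, Atp5d, Fh1, Idh3a, Gm10222, Nrf1, Gabpa, Yy1, Polg, Fastkd2, Slirp, Mtpap) were named after their values were seen. Separation between genotypes was counted without a test. Scripts were tested on simulated data. No paralogs other than shared 51-base windows were examined. Alternatives covered scaling, filtering, test and each library left out. 1 member is counted among the totals but not reported here by name.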

Additional observations from a re-analysis of the deposited data

How the results depend on the processing

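Under every alternative the median log2 fold change of the nuclear members stayed above 0, between 0.46 and 0.90 with 1 tumor left out. That of the mitochondrial members, -1.75, lay between -2.33 and 1.150 with 1 tumor left out, and was above 0 only without No244. DESeq2 called 419 genes and 1 member, and every other fit called 0 of each, with 763 to 3085 genes at an unadjusted p under 0.05 when 1 tumor was left out and 1540 by limma-voom. Nuclear members without overlap, 24, numbered 37 with library sizes alone and 24 to 61 with 1 tumor left out (40 without No279). Counting No316 and No368 once, chosen after seeing the data, gave 25 members. The share of all genes that separated upward also rose, from 9.49% to 20.2% without No244 and 15% without No364. For the other settings that share is not given here, so these counts show no change particular to the members. With medians of log2 counts in place of sums, the mitochondrial to nuclear ratio was 549 in No244, 57.3 in No316, 62.3 in No368, 54.6 in No203, 28.8 in No279 and 74.9 in No364, since a median ignores how many members are summed.

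Of 33 genes with fold changes under alternatives, 27 kept their direction in all, and 6 turned with 1 tumor left out. Ranges were -6.13 to 0.53 for Cox6a2, -2.35 to 0.36 for Cox7a1, -6.76 to 0.20 for Cox8b, -0.43 to 2.70 for Cox4i2, -0.56 to 2.10 for Cox6b2 and -2.08 to 1.58 for mt-Co1. Cox6a2, Cox7a1, Cox8b and mt-Co1 turned without No244, Cox4i2 without No279 and Cox6b2 without No364. No paired analysis was possible because the labels number the mice and no number occurs in both genotypes. Depth did not limit the ratio or the shares of the mitochondrial and nuclear members. The lowest isoform shares rest on few reads. Cox8b had 2 counts in No364 and 6 in No279, and Cox6a2 had 11 in No364. Cox6b2 had 10 to 15 counts in every tumor but No364. Cox7b2 and Cox8c were at or near 0 counts.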
